A study of Homo sapiens with 6 samples.

Results

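The genes described here are those of glycolysis, lactate production and export, pyruvate entry into the mitochondrion and the pentose phosphate pathway in MDAMB468 cells with and without overexpression of IGFBP2. A list of 34 gene symbols, named for their place in these pathways, was matched to the 10487 genes of the deposited table through their Ensembl identifiers. Of the 34 genes, 32 were in the table. The glucose transporter SLC2A3 and the aldolase ALDOC were not analysed here.

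The MDAMB468 line comes from a triple negative breast tumour, meaning that it lacks the estrogen and progesterone receptors and HER2 amplification, and the study used it to follow resistance to the EGFR inhibitor afatinib. RNA came from 3 biological replicates of control cells, labelled wild type and untreated, and from 3 of cells overexpressing IGFBP2. This secreted protein binds insulin-like growth factors, and its gene, already expressed in control cells, was driven higher from its own promoter. The overexpression cells stably carried a catalytically dead Cas9 fused to transcriptional activators (dCas9-VHP), delivered by lentivirus under blasticidin selection, and a guide RNA against IGFBP2. They were sorted on the fluorescent marker of the guide vector as a population and were not described as a single clone. They were untreated as well, and the sources used here do not say whether the control cells carried the activator, a guide or the selection, so IGFBP2 itself and the engineering steps cannot be told apart. The libraries held the 3' end of each polyadenylated transcript, and expression is given as CPM, the read count of a gene scaled to the size of its library, as normalised by the authors. A transcript gives reads from its 3' end alone, so CPM was not divided by gene length, and levels were compared between libraries. Between genes, only sums (over a step, pathway or marker list), read shares within a step and isozyme differences are given. These are set side by side between the groups, and genes that hold most of a sum are named.

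Glycolysis splits glucose into pyruvate in the cytosol. Glucose enters through transporters, is trapped by hexokinase, is committed to the pathway by phosphofructokinase, and after cleavage by aldolase yields ATP at phosphoglycerate kinase and pyruvate kinase. Lactate dehydrogenase turns pyruvate into lactate, which leaves the cell through monocarboxylate transporters, while pyruvate dehydrogenase, held off by its kinases, sends pyruvate to the mitochondrion. The pentose phosphate pathway branches off early: its oxidative arm makes NADPH and its non-oxidative arm interconverts ribose phosphate with glycolytic sugars. Many tumour cells run glycolysis to lactate even with oxygen present, and several of these enzymes exist as isozymes encoded by separate genes.

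The promoters of 2 isozyme pairs are shown because the genes of each pair serve the same step and gave log2 fold changes of different size: PFKP with PFKL, both phosphofructokinases, and LDHA with LDHB, both lactate dehydrogenases. Each sequence is the 250 bases before the RefSeq transcription start, on the strand of the gene, in GRCh38.p14: PFKP at chr10:3067720-3067969 (plus strand), PFKL at chr21:44299803-44300052 (plus strand), LDHA at chr11:18394313-18394562 (plus strand) and LDHB at chr12:21657843-21658092 (minus strand). Capitals mark ACGTG or GCGTG, the core letters of the hypoxia response element, or their reverse complements.
PFKP: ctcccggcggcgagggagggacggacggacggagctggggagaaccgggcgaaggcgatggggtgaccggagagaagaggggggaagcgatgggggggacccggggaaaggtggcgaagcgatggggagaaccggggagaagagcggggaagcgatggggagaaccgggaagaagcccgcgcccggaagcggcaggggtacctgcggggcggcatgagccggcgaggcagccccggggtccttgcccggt
PFKL: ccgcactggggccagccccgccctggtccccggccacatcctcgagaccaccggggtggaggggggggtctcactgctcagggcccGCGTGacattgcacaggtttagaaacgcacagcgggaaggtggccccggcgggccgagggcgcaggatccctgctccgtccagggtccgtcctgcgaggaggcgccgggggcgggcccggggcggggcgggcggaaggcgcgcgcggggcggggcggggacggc
LDHA: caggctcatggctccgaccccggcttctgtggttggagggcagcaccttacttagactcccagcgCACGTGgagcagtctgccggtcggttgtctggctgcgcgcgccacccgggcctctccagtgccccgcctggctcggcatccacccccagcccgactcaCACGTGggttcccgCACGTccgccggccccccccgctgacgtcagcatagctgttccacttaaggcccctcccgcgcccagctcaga
LDHB: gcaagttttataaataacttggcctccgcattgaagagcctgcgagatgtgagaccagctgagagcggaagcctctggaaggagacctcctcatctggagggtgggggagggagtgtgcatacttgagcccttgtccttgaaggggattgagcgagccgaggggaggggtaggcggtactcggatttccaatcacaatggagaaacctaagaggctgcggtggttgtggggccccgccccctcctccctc
The window of LDHA held 5 matches to the core letters, beginning 185, 184, 87, 86 and 73 bases before the start. Of these, 4 came from 2 copies of CACGTG, the E-box, which contains ACGTG on both strands and is counted on each. PFKL held 1 match, 164 bases before its start, and PFKP and LDHB held 0. The windows of PFKP and LDHB lie inside the annotated spans of these genes. Each describes the RefSeq start used here and not every start of the gene. Of the 32 measured genes, 30 had a promoter in the RefSeq table, and 15 of these (50%) held ACGTG or GCGTG on either strand, against 59.3% of the 8551 promoters of genes in the deposited table. CACGTG was found in 2 of the 30 (6.67%), GAPDH and LDHA, against 9.3% of the 8551. These counts describe letters in a window and not binding.

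The libraries held 2497353 to 4579587 reads on the listed genes. IGFBP2 stood at 93.5, 87.3 and 136 CPM in control replicates 1, 2 and 3 and at 566, 1176 and 498 CPM in overexpression replicates 1, 2 and 3 (log2 fold change 2.73, SE 0.33, limma adjusted p = 0.0148). Of 6 epithelial markers, 6 were in the table, with summed levels of 3469 to 5037 CPM in control and 3949 to 4795 CPM in overexpression libraries. Of 7 basal markers, 6 were present and KRT6A was not among the listed genes. Their summed levels did not overlap between the groups, at 1401 to 1563 CPM in control and 1691 to 2111 CPM in overexpression libraries. Most of this sum was EGFR (mean 937 against 1262 CPM) and KRT5 (346 against 480.2 CPM), while the mean was higher in KRT6B (9.56 against 31.4 CPM) and KRT16 (80.4 against 95.3 CPM) and lower in KRT14 (11.8 against 10.8 CPM) and KRT17 (121 against 82.9 CPM). Of 5 hormone receptor and luminal markers, GATA3 and ERBB2 were present (135 to 199.7 CPM against 137 to 158 CPM), and ESR1, PGR and FOXA1 were not. COL1A1 was the 1 fibroblast marker of 6 in the table (12.2 to 27.5 CPM against 9.36 to 15.8 CPM), and 0 of 5 leukocyte and 0 of 3 endothelial markers were. Mitochondrially encoded genes took 7.31 to 8.55% of the reads in control and 7.20 to 8.29% in overexpression libraries, and cytosolic ribosomal protein genes took 12.2 to 13.4% and 12.0 to 13.7%. In bulk RNA, a change in the share of a cell state and a change in RNA per cell cannot be told apart. The part of these markers in the results that follow was not tested.

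Most genes of these pathways had a higher mean in IGFBP2 overexpression than in control cells, but a single one, the phosphofructokinase PFKP, passed the test across all genes. The test was limma on log2(CPM + 1) of all 10487 genes with Benjamini-Hochberg adjustment at 0.05, and the log2 fold change is the difference of the group means on that scale. PFKP was 1 of 32 genes called, against 0.629% of all genes (0.429% higher). The mean was higher in 30 of the 32 genes, against 50.0% of all genes. The log2 fold change exceeded 0.25 in 23, against 21.5% of all genes. PGAM1 and PFKFB4 passed the authors' filter of 5 CPM only through the overexpression group (control means 2.81 and 3.36 CPM). Their higher means were therefore fixed by that filter, and they are included in this and later counts of higher genes. The median log2 fold change was 0.45 (quartiles 0.23 to 0.73), whereas the median of all genes was 9.8e-05 (quartiles -0.22 to 0.21). At an unadjusted p under 0.05 there were 9 genes, all higher, against 13.0% of all genes (6.88% higher). The 3 control and 3 overexpression libraries did not overlap in 15 genes, against 18.0% of all genes. In 13 of the 15 every overexpression library was above every control library, against 9.43% of all genes, and in PFKFB2 and PGLS every one was below, against 8.61%. These genes share a pathway and the same 6 libraries and are not independent of one another.

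**Figure D1:**
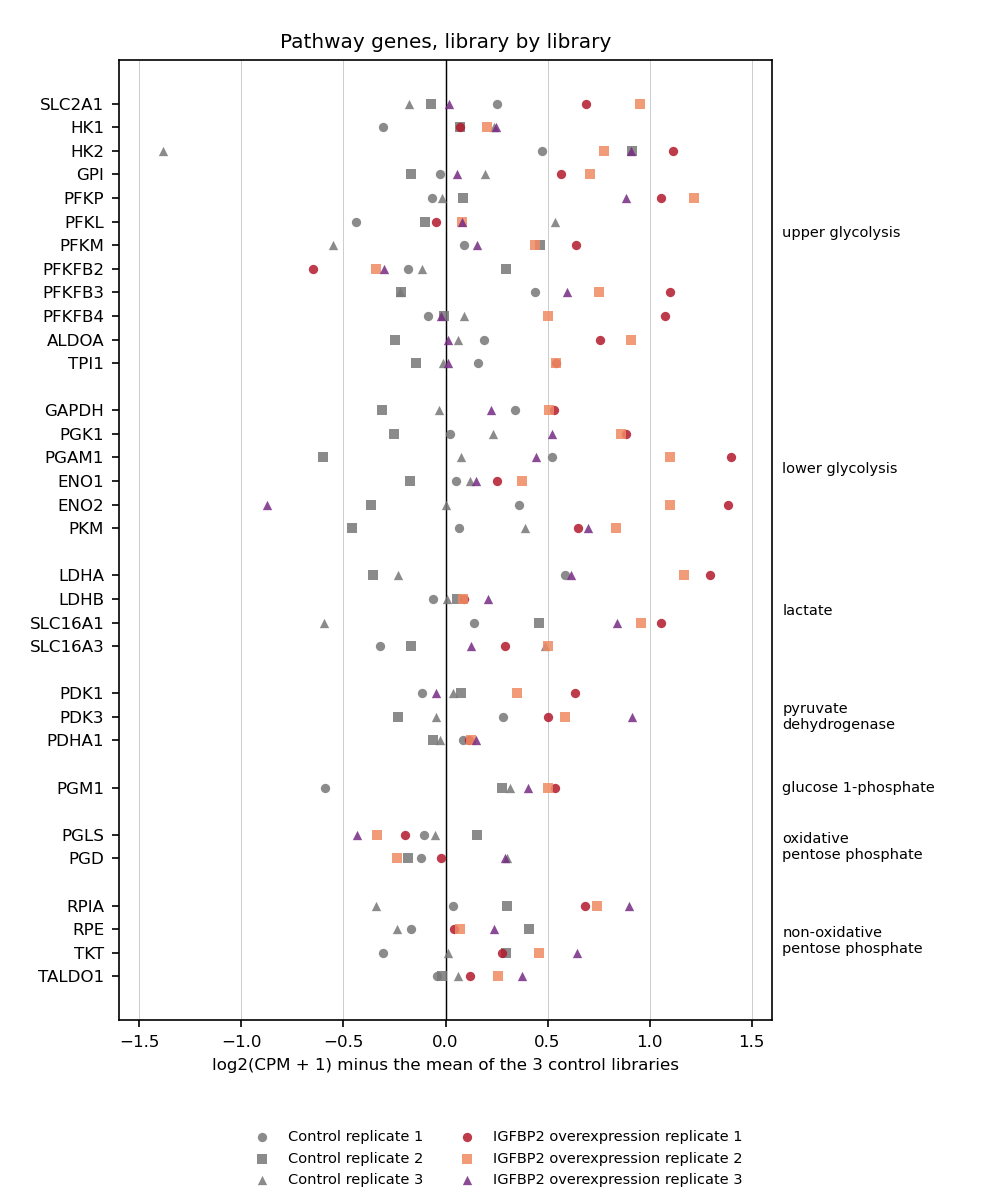
Each row is a gene in pathway order, and the x axis is log2(CPM + 1) in each library minus the mean of the 3 control libraries. Grey symbols are control and coloured symbols IGFBP2 overexpression libraries, with the shape giving the replicate number. Most coloured symbols lie to the right of 0, and in glycolysis the triangle of overexpression replicate 3 often lies nearest to the controls.

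**Figure D2:**
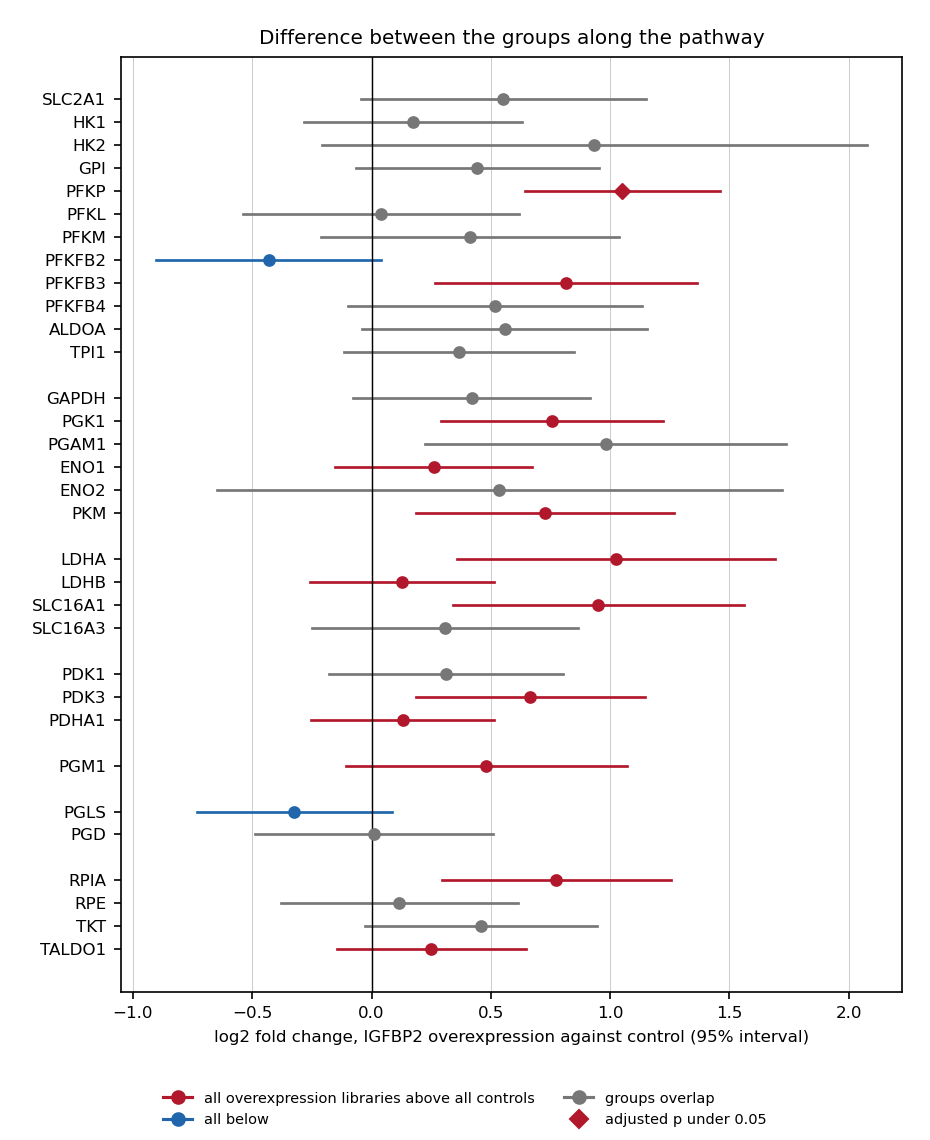
The x axis is the log2 fold change of IGFBP2 overexpression against control on the log2(CPM + 1) scale, with the 95% interval from limma (n = 3 libraries per group), for each gene in pathway order. Red marks genes whose overexpression libraries all lay above the controls, blue the reverse and grey an overlap, and the diamond marks PFKP, the single gene with an adjusted p under 0.05.

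At the entry of the pathway the groups overlapped. SLC2A1, the basal glucose transporter of most cells, stood at 88.1, 70.4 and 65.1 CPM in control replicates 1, 2 and 3 and at 119.7, 144 and 74.9 CPM in overexpression replicates 1, 2 and 3 (log2 fold change 0.55, adjusted p = 0.419). Overexpression replicates 1 and 2 were above all controls, while replicate 3 lay between control replicates 1 and 2. HK1, the widely expressed hexokinase, gave 181, 235 and 264 CPM in control and 235, 258 and 266 CPM in overexpression libraries (log2 fold change 0.17, adjusted p = 0.781). HK2, the inducible hexokinase, gave 12.9, 17.8 and 2.83 CPM against 20.7, 16.1 and 17.7 CPM (log2 fold change 0.93, SE 0.50, adjusted p = 0.476). Overexpression replicates 2 and 3 were not above control replicate 2. Control replicate 3 held 7 reads of HK2, and without that library the log2 fold change was 0.24.

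PFKP, the platelet-type phosphofructokinase (ENSG00000067057, chromosome 10, 3066333 to 3137718 in GRCh38), rose about 2.09-fold in mean CPM. It stood at 138, 153 and 143 CPM in control replicates 1, 2 and 3 and at 301, 337 and 267 CPM in overexpression replicates 1, 2 and 3, or 145 ± 7.87 against 302 ± 34.6 CPM (SD, n = 3 each). The lowest overexpression library was well above the highest control. The log2 fold change was 1.05 (SE 0.18, 95% interval 0.64 to 1.46), with a limma adjusted p = 0.0455, close to the threshold. It passed in 6 of 16 alternative analyses and in 0 of the 6 that each left out one library, where the log2 fold change still ran from 0.97 to 1.14. Over all alternatives the adjusted p ranged from 0.00194 to 0.223.

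The other phosphofructokinases did not pass. PFKL, the liver-type enzyme, gave 51.5, 65.4 and 102 CPM in control and 67.8, 74.2 and 74.2 CPM in overexpression libraries (log2 fold change 0.04, SE 0.25, adjusted p = 0.969). Control replicate 3 was its highest library, and the overexpression libraries lay inside the control range. PFKM, the muscle type, rested on 10 to 33 reads and gave 6.88, 9.18 and 4.04 CPM against 10.5, 9.04 and 7.23 CPM (log2 fold change 0.41, adjusted p = 0.579). SENP1, another gene of the table, overlaps PFKM on the opposite strand, and the strand setting of the counting is not given in the sources used here.

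The bifunctional enzymes that make and remove the sugar bisphosphate activating phosphofructokinase had group means in different directions, and none of them passed. PFKFB3, a form with high kinase activity, stood at 40.8, 25.6 and 25.5 CPM in control replicates 1, 2 and 3 and at 65.1, 51.0 and 45.7 CPM in overexpression replicates 1, 2 and 3 (log2 fold change 0.81, SE 0.24, adjusted p = 0.219). Its groups did not overlap, but control replicate 1 came close to overexpression replicate 3. PFKFB2, known from heart, was 30.0, 42.3 and 31.5 CPM in control and 21.4, 26.8 and 27.6 CPM in overexpression libraries (log2 fold change -0.43, SE 0.21, adjusted p = 0.424), with every overexpression library below every control. YOD1 overlaps PFKFB2 on the opposite strand. PFKFB4 rested on 9 to 21 reads and gave 3.11, 3.34 and 3.64 CPM against 8.19, 5.16 and 3.28 CPM (log2 fold change 0.52, adjusted p = 0.464), with overexpression replicate 3 inside the control range.

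The remaining steps of upper glycolysis did not pass. GPI, which converts glucose phosphate to fructose phosphate, gave 782, 706 and 911 CPM in control and 1176, 1302 and 827 CPM in overexpression libraries (log2 fold change 0.44, adjusted p = 0.448). ALDOA, the main aldolase, gave 438, 324 and 402 CPM against 650.2, 722 and 387 CPM (log2 fold change 0.56, adjusted p = 0.414). TPI1, which interconverts the triose phosphates, gave 150.1, 121 and 133 CPM against 196, 196 and 135 CPM (log2 fold change 0.37, adjusted p = 0.515). In all 3 genes overexpression replicates 1 and 2 exceeded every control and replicate 3 lay within the control range, so the groups overlapped. SPSB2 overlaps TPI1 on the opposite strand.

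In lower glycolysis the mean of all 6 genes was higher in overexpression cells, and PGK1, ENO1 and PKM had groups that did not overlap. For PGAM1 the higher mean was set in advance, since only its overexpression mean exceeded the 5 CPM filter. PGK1, the kinase of the first ATP-yielding step (ENSG00000102144, chromosome X, 77910739 to 78129295), stood at 219, 181 and 253 CPM in control replicates 1, 2 and 3 and at 399, 392 and 310.4 CPM in overexpression replicates 1, 2 and 3. Its log2 fold change was 0.76 (SE 0.21, adjusted p = 0.181), and the adjusted p was 0.0341 with a mean-variance trend and 0.0414 with limma voom on reads. ATP7A, also in the table, overlaps PGK1 on the same strand, and reads in the overlap could be assigned to neither or either gene. PKM, pyruvate kinase (ENSG00000067225, chromosome 15, 72199029 to 72231819), stood at 574, 399 and 719 CPM in control and 859.6, 979 and 889 CPM in overexpression libraries (log2 fold change 0.73, SE 0.24, adjusted p = 0.252). The overexpression libraries of PKM lay close together and the controls were spread, at 909 ± 62.1 against 564 ± 161 CPM (SD, n = 3 each). The 3' end reads do not separate the splice forms of PKM.

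ENO1, the common enolase, gave 982, 839 and 1029.9 CPM in control and 1128, 1228 and 1051 CPM in overexpression libraries (log2 fold change 0.26, adjusted p = 0.601). Its groups were apart by a small margin, between control replicate 3 and overexpression replicate 3. ENO2, the enolase of neurons, gave 7.55, 4.17 and 5.66 CPM against 16.4, 13.2 and 2.63 CPM (log2 fold change 0.54, SE 0.52, adjusted p = 0.725), and overexpression replicate 3, with 8 reads, was its lowest library. The ENO2 value ran from 0.11 without overexpression replicate 1 to 1.24 without overexpression replicate 3. GAPDH, which oxidises glyceraldehyde phosphate and is often used as a reference gene, gave 3726, 2367 and 2877 CPM in control and 4243, 4173 and 3432 CPM in overexpression libraries (log2 fold change 0.42, adjusted p = 0.461). Control replicate 1 exceeded overexpression replicate 3, so the GAPDH groups overlapped. PGAM1, phosphoglycerate mutase, held 5 to 22 reads per library and gave 4.22, 1.39 and 2.83 CPM against 8.58, 6.78 and 3.94 CPM (log2 fold change 0.98, SE 0.33, adjusted p = 0.267). Its groups overlapped at control replicate 1 and overexpression replicate 3.

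Close copies of these genes limit the counts of some of them. GENCODE 44 names 116 pseudogenes after 16 of the 32 genes, among them 65 for GAPDH and 13 for PGAM1, and 0 of the 116 were in the table. How reads that match a gene and its pseudogenes were treated in the counting is not given in the sources used here, so the levels of the 16 genes are uncertain to that extent.

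At the lactate step the groups did not overlap for either subunit gene, and neither passed. LDHA, whose subunit favours the making of lactate (ENSG00000134333, chromosome 11, 18394560 to 18408425), stood at 304, 158 and 172 CPM in control replicates 1, 2 and 3 and at 499, 456 and 310.1 CPM in overexpression replicates 1, 2 and 3. The lowest overexpression and the highest control library were nearly level, and the means were 212 ± 80.6 and 422 ± 98.9 CPM (SD, n = 3 each). The log2 fold change was 1.03 (SE 0.29, 95% interval 0.36 to 1.69, adjusted p = 0.198), with an adjusted p of 0.0365 under a mean-variance trend and 0.0509 under limma voom. LDHB, whose subunit favours the use of lactate, gave 334, 364 and 351 CPM in control and 372, 370.2 and 404 CPM in overexpression libraries (log2 fold change 0.13, SE 0.17, adjusted p = 0.816). Its lowest overexpression library was just above its highest control.

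SLC16A1, the monocarboxylate transporter MCT1, stood at 53.1, 66.5 and 31.5 CPM in control replicates 1, 2 and 3 and at 101, 94.6 and 87.1 CPM in overexpression replicates 1, 2 and 3 (log2 fold change 0.95, SE 0.27, adjusted p = 0.196). All overexpression libraries were above all controls, and the controls differed more among themselves. SLC16A3, the transporter MCT4 of highly glycolytic cells, gave 28.2, 31.4 and 50.1 CPM against 43.7, 50.7 and 38.8 CPM (log2 fold change 0.31, adjusted p = 0.657), and its groups overlapped. A listed gene overlaps each of them on the opposite strand, SLC16A1-AS1 and CSNK1D in that order.

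**Figure D3:**
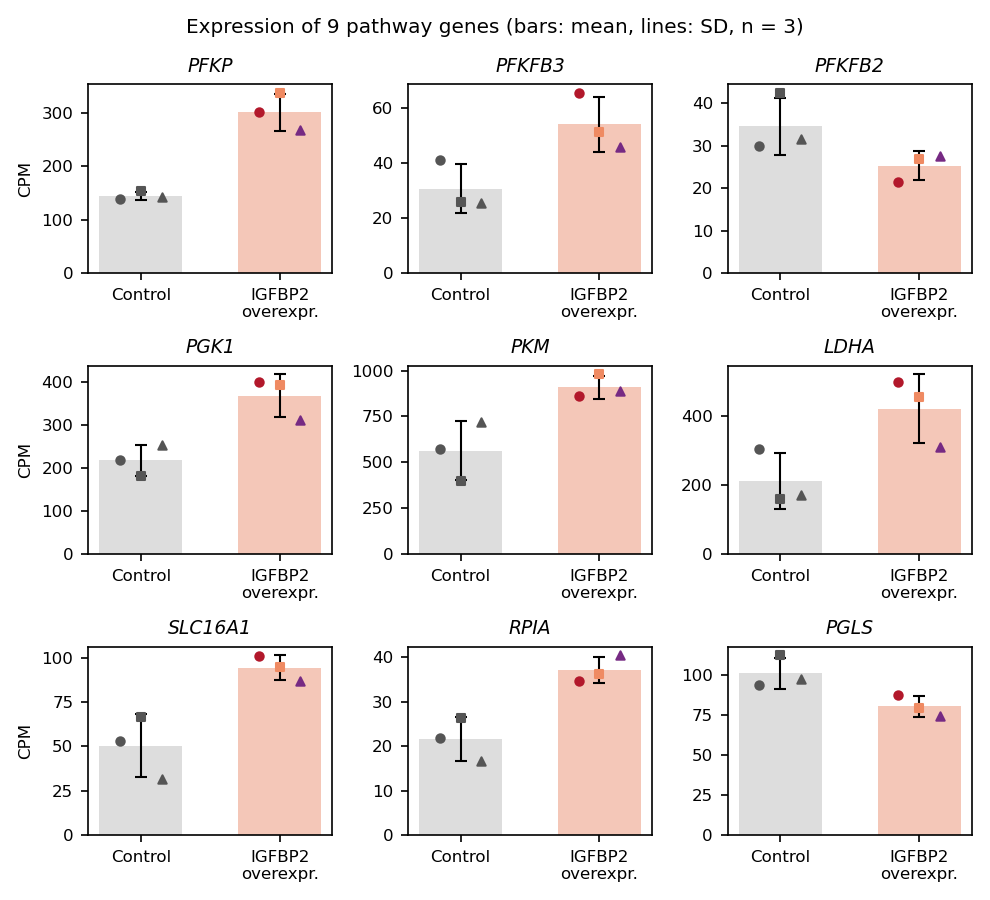
Each panel gives CPM (y axis from 0) of a gene in control and IGFBP2 overexpression cells, with bars for the mean, lines for the SD and points for the 3 libraries (circle, square and triangle for replicates 1, 2 and 3). PFKP shows the widest gap relative to its spread, LDHA and PFKFB3 have a control library close to the lowest overexpression library, and PFKFB2 and PGLS are lower in overexpression cells.

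At the entry to the mitochondrion, PDK3, a kinase that inactivates pyruvate dehydrogenase, stood at 24.6, 17.0 and 19.4 CPM in control and 28.8, 30.7 and 38.8 CPM in overexpression libraries (log2 fold change 0.67, SE 0.21, adjusted p = 0.239). Its groups did not overlap, and overexpression replicate 3 was the highest library. PDK1, another such kinase, gave 13.8, 15.9 and 15.4 CPM against 23.8, 19.4 and 14.5 CPM (log2 fold change 0.31, adjusted p = 0.597), with overexpression replicate 3 inside the control range. PDHA1, the catalytic subunit gene of pyruvate dehydrogenase, gave 139, 125 and 128 CPM against 142, 142 and 145 CPM (log2 fold change 0.13, adjusted p = 0.81), apart by a small margin. PGM1, which links glycolysis to glycogen, gave 28.9, 53.4 and 55.0 CPM against 64.3, 62.6 and 58.5 CPM (log2 fold change 0.48, adjusted p = 0.476). Its groups did not overlap, control replicate 1 was far below the other controls, and without that library the log2 fold change was 0.19. ITGB3BP overlaps PGM1 on the opposite strand.

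In the pentose phosphate pathway none of the 6 genes passed the adjusted test, and the mean was lower in PGLS and higher in the other 5. PGLS, the lactonase of the oxidative arm, stood at 93.9, 112 and 97.4 CPM in control replicates 1, 2 and 3 and at 87.7, 79.7 and 74.6 CPM in overexpression replicates 1, 2 and 3 (log2 fold change -0.32, SE 0.18, adjusted p = 0.495). All overexpression libraries of PGLS were below all controls. The noncoding gene PGLS-DT, also in the table, overlaps it on the opposite strand. PGD, the dehydrogenase that follows, gave 74.4, 71.2 and 99.9 CPM against 79.5, 68.4 and 99.2 CPM (log2 fold change 0.01, 95% interval -0.49 to 0.51, adjusted p = 0.989), and the 2 groups covered nearly the same range.

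In the non-oxidative arm, RPIA, which makes ribose phosphate (ENSG00000153574, chromosome 2, 88691673 to 88750929), stood at 21.8, 26.4 and 16.6 CPM in control and at 34.7, 36.2 and 40.4 CPM in overexpression libraries (log2 fold change 0.77, SE 0.21, adjusted p = 0.184). Every overexpression library was above every control. TALDO1, transaldolase, gave 283, 288 and 304 CPM against 317, 349 and 378 CPM (log2 fold change 0.25, adjusted p = 0.601), also without overlap. TKT, transketolase, gave 257, 390.0 and 319.8 CPM against 385, 437 and 497 CPM (log2 fold change 0.46, adjusted p = 0.41), where control replicate 2 was just above overexpression replicate 1. RPE, the epimerase, gave 38.6, 58.1 and 36.8 CPM against 44.8, 45.8 and 51.6 CPM (log2 fold change 0.12, adjusted p = 0.874), and its groups overlapped.

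Added up by step, the mean was higher in overexpression cells at 22 of 23 steps, the exception being the lactonase step of PGLS. Most steps hold 1 gene and repeat its result, among them PGD at a ratio of 1.01 and PGAM1, whose direction the filter fixed. At several steps the groups overlapped. The 14 measured glycolytic enzyme genes from hexokinase to pyruvate kinase, without the bifunctional enzymes, summed to 6515 ± 969 CPM in control and 8897 ± 1079 CPM in overexpression cells (SD, n = 3 each), a ratio of 1.37. Without GAPDH, which held the most reads of them, the sums were 3525 ± 459 and 4947 ± 655 CPM, a ratio of 1.40. The 6 pentose phosphate genes summed to 863 ± 89.0 and 1035 ± 97.3 CPM, a ratio of 1.20. Among single steps with several isozymes, the 3 phosphofructokinases had the highest ratio, from 224 ± 26.4 to 383 ± 35.6 CPM or 1.71, and the 2 monocarboxylate transporters followed with 86.9 ± 9.50 and 139 ± 11.0 CPM, or 1.59. These sums describe the libraries and were not tested.

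The balance between isozymes was compared within each library, as the difference of log2(CPM + 1) between the genes of a pair, for 11 pairs with both genes measured. In 3 pairs the groups did not overlap, and in 8 they did. Pairs share genes and are not independent, PFKFB2 being in each of the PFKFB pairs that were apart. No share over other gene pairs was computed to set beside this count. The exact two-sided permutation test of 3 libraries against 3 cannot go below p = 0.1, and the smallest value after adjustment over the 11 pairs was 0.367, so no pair passed. PFKP minus PFKL was 1.40, 1.22 and 0.48 in control replicates 1, 2 and 3 and 2.14, 2.17 and 1.83 in overexpression replicates 1, 2 and 3, a difference between groups of 1.01 (exact permutation p = 0.1). PFKFB2 minus PFKFB3 was -0.43, 0.70 and 0.30 in control and -1.56, -0.90 and -0.71 in overexpression libraries, a difference of -1.25 (exact permutation p = 0.1). PFKFB2 minus PFKFB4 differed by -0.95 (exact permutation p = 0.1), on 9 to 21 reads of PFKFB4. That gene passed the 5 CPM filter only through the overexpression group, which favours a difference in this direction. LDHA minus LDHB was -0.14, -1.20 and -1.02 in control and 0.42, 0.30 and -0.38 in overexpression libraries, a difference of 0.90 with control replicate 1 inside the overexpression range (exact permutation p = 0.2).

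As a share of the reads of their family, PFKP took 65.0 ± 6.73% of phosphofructokinase reads in control and 78.7 ± 1.84% in overexpression libraries (SD, n = 3 each), while PFKL took 32.0 ± 7.89% and 18.9 ± 2.03%. PFKFB3 took 44.4 ± 9.88% and 63.3 ± 4.80% of the reads of the 3 bifunctional enzymes, and PFKFB2 50.6 ± 9.49% and 30.3 ± 6.92%. LDHA took 37.0 ± 9.34% and 52.0 ± 7.46% of the lactate dehydrogenase reads. By library the LDHA share was 47.7, 30.3 and 32.9% in control and 57.3, 55.2 and 43.4% in overexpression libraries, with control replicate 1 above overexpression replicate 3.

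**Figure D4:**
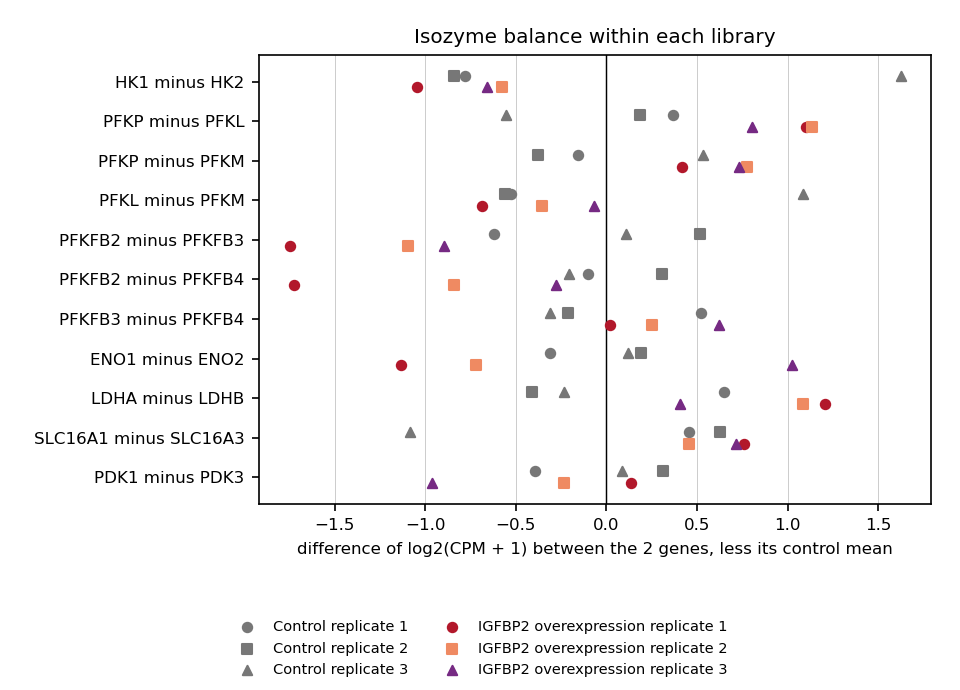
For each isozyme pair, the x axis is the difference of log2(CPM + 1) between the 2 genes in a library, less the mean of that difference in the 3 control libraries. Grey symbols are control and coloured symbols overexpression libraries. The groups are apart for PFKP minus PFKL, PFKFB2 minus PFKFB3 and PFKFB2 minus PFKFB4 and overlap for the other 8 pairs.

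The overexpression libraries were not alike along the pathway. Of the 22 genes from glucose uptake to lactate export, 18 were above all controls in overexpression replicate 1, 17 in replicate 2 and 9 in replicate 3, whereas 25.1, 25.3 and 24.9% of all genes were. Replicate 3 was the lowest of the 3 overexpression libraries in 16 of these 22 genes, against 36.7% of all genes. The median difference from the control mean over the 22 genes was 0.67, 0.73 and 0.18 on the log2 scale in overexpression replicates 1, 2 and 3. In the non-oxidative pentose phosphate arm the order was turned, and replicate 3 was the highest of the 3 in 4 of 4 genes, against 35.9% of all genes. IGFBP2 itself stood at 566, 1176 and 498 CPM in overexpression replicates 1, 2 and 3, so replicates 1 and 3 were close and replicate 2 was highest. Among the controls, replicate 2 was the lowest in 6 of 6 lower glycolysis genes, against 32.4% of all genes. Without overexpression replicate 3, the groups were apart in 24 of the 32 genes, against 30.2% of all genes with that library left out. These patterns of libraries were noticed in the data and were not tested.

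Other genes of glycolysis and the routes that join it were taken from a list of 67, of which 38 were in the table. None of the 38 was called with limma, against 0.629% of all genes, and the median log2 fold change was 0.06. At an unadjusted p under 0.05 there were 8 (21.1%), 5 higher and 3 lower, against 13.0% of all genes (6.88% higher and 6.12% lower). In 9 of the 38 (23.7%) the groups did not overlap, 7 higher and 2 lower, against 18.0% of all genes (9.43% higher and 8.61% lower). With a mean-variance trend 1 of the 38 was called, and with limma voom 1, against 1.53 and 1.34% of all genes. Of the 32 pathway genes, the trend called 3 (PFKP, PGK1 and LDHA) and voom 2 (PFKP and PGK1).

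The 3 largest differences without overlap among these other genes were in HKDC1, PYGL and SLC2A12. HKDC1 and PYGL passed the 5 CPM filter only through the overexpression group (control means 3.45 and 2.56 CPM). Their higher direction was therefore set by the filter, and both are among the other pathway genes counted as higher. HKDC1, a hexokinase family member, stood at 1.33, 8.62 and 0.404 CPM in control replicates 1, 2 and 3, the last on 1 read, and at 23.0, 18.4 and 12.5 CPM in overexpression replicates 1, 2 and 3 (log2 fold change 2.55, SE 0.60, adjusted p = 0.129). It was the gene called with the trend (adjusted p = 0.0267) and with limma voom (adjusted p = 0.0374). PYGL, a glycogen phosphorylase, gave 0.444, 2.78 and 4.45 CPM against 6.63, 15.5 and 11.5 CPM (log2 fold change 1.91, SE 0.47, adjusted p = 0.142). SLC2A12, a glucose transporter, gave 31.7, 38.7 and 16.2 CPM against 10.9, 14.5 and 11.5 CPM (log2 fold change -1.09, SE 0.31, adjusted p = 0.194), with every overexpression library below every control.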

How the data were processed

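Transcript 3' ends were sequenced in total RNA of MDAMB468 cells, with 3 replicates of control and 3 of IGFBP2 overexpression (100 ng input per the labels, a larger amount per the methods). The authors made fastq files with bcl2fastq, trimmed reads with bbduk, aligned them to hg38 (Ensembl 93) with STAR, counted them with htseq-count (HTSeq 0.9.1 per the submitters' processing notes), normalised them with edgeR and retained genes whose average CPM exceeded 5 in a condition. The deposited values are log2(CPM + 1). In each library 100% of values came out as whole reads (tolerance 1e-06).

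limma 3.58.1 (R 4.3.3) was fitted without a mean-variance trend to the log2 values deposited for the 10487 genes, with group as the only term. Benjamini-Hochberg adjustment was used (threshold 0.05). The pathway genes, the lists and this choice of test were made with earlier results of these data known, so patterns already seen in them are not independent support. The limma p-values set each mean difference against the spread between these libraries, with variance estimates that draw on all genes. The sources used here describe no separately made overexpression lines of MDAMB468, so variation between such lines was not measured. Isozyme differences were compared by exact permutation in Python 3.11.15 (scipy 1.17.1). The genes named are IGFBP2, the pathway genes in the table, and of the other pathway genes those called and the 3 largest differences without overlap. GENCODE 44 on GRCh38 gave symbols and positions (10462 of 10487 identifiers matched), promoters from RefSeq. On reads simulated at the depths of these libraries (10487 genes, 200 changed, dispersion 0.05), the test recovered 40% of 2-fold and 100% of 4-fold changes. The simulation used the same dispersion for all genes, not estimated from these libraries, so its rates need not hold for them. Fold changes on the log2(CPM + 1) scale understate the change of low genes. Replicate libraries of a group differed by more than sampling noise. Alternatives covered the variance model, scaling, the pseudocount, a filter at a mean of 10 CPM, a replicate block and the removal of single libraries.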

Additional observations from a re-analysis of the deposited data

How the results depend on the processing

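Over the 16 alternatives the median log2 fold change of the pathway genes ran from 0.34 to 0.54, and IGFBP2 passed in all 16. The number of all genes called (66) was 160 with a mean-variance trend, 141 with limma voom, 37 with a pseudocount of 0.1 and 129 with a pseudocount of 5, and 12 to 79 with one library left out (12 without overexpression replicate 1, 13 without overexpression replicate 2, 17 without control replicate 3). The number of pathway genes called (1, PFKP) was 3 with the trend and 2 with limma voom. It was 0 with library size only and with totals without the pathway genes, against 0.563% of all genes in each. It was also 0 with a pseudocount of 0.1 (0.353% of all genes) and without any single library (0.114 to 0.753%). The other pathway genes called (0) were 1 (HKDC1) with the trend, with limma voom and with a pseudocount of 5. The last was an alternative chosen after seeing the data. With a library left out they were 0 to 1 (HKDC1 without control replicate 2). HKDC1 passed the 5 CPM filter only through the overexpression group, which set its direction in advance. The cause of these shifts in the counts was not tested.

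Deviations from the group means correlated at 0.172, -0.064 and 0.0842 for same-numbered libraries. Differently numbered libraries were not compared, so these values cannot decide whether the replicate numbers pair the libraries. With a replicate block in limma, 0 of the 32 pathway genes were called and 1 of the 38 others (PYGL, adjusted p = 0.0392). The share of all genes called was 0.524%. PYGL passed the 5 CPM filter only through the overexpression group, which set its direction in advance.

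Pathway genes without overlap (15) ranged from 15 to 24 with a library left out, against 25.4 to 30.5% of all genes, and the 24 came without overexpression replicate 3 (30.2% of all genes). This count and that of genes above the control mean were added as results after seeing the data. Isozyme pairs without overlap (3) were 3 to 5, with 5 without control replicate 1 and 5 without overexpression replicate 3. These pairs share genes, and no background share was computed for them. In 15 of the 32 pathway genes, PFKP not among them, leaving out a library moved the log2 fold change by over 1.5 times, and some directions turned. The log2 fold change of PGD ran from -0.13 to 0.16 (-0.05 and -0.081 without control replicates 1 and 2, -0.13 without overexpression replicate 3), that of PFKL from -0.18 to 0.31 (-0.18 and -0.0091 without control replicates 1 and 2) and that of RPE from -0.0025 (without control replicate 3) to 0.32. HK1 minus HK2 ran from -1.18 to 0.052 and PFKL minus PFKM from -0.65 to 0.17, turned without control replicate 3, and ENO1 minus ENO2 from -0.93 to 0.15, turned without overexpression replicate 1.

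Depth limits the genes with few reads, PGAM1, HK2, ENO2, PFKFB4 and PFKM, with 5 to 10 reads in their lowest library.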
